A study of Mus musculus with 4 samples.

Results

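Among hematopoietic stem and progenitor cells of mouse bone marrow, a small set carried RNA of both Csf1r, the receptor for macrophage colony-stimulating factor, and Irf8, a transcription factor of monocytes and dendritic cells. These Csf1r+Irf8+ cells were chosen by their counts, in which each unique molecular identifier (UMI) stands for 1 captured transcript. A cell needed at least 2 UMIs of Csf1r and at least 2 of Irf8. It also had to hold no UMI of Siglech, a marker of plasmacytoid dendritic cells, none of Ms4a1, which encodes the B cell protein CD20, and fewer than 5 UMIs of the neutrophil elastase gene Elane per 10000. Of 13892 cells kept from 25242 deposited barcodes, 55 passed, and the other 13837 are called other kept cells below. The mice of the control group, wild-type in the labels, were Nup358 fl/fl, and those of the knockout group were Nup358 fl/fl and also carried a tamoxifen-inducible Cre, R26-CreERT2, which acts in all tissues. Tamoxifen given on 3 consecutive days deletes exon 2 of Nup358, a gene for a nuclear pore protein. Each of the 4 libraries, 2 of each genotype, held live lineage-negative Sca1+cKit+ (LSK) cells pooled from 3 bone marrows of mice aged 9 to 12 weeks, so that each genotype rested on 6 mice. In the study's scheme of the experiment, mice of both genotypes received tamoxifen. The delay between tamoxifen and the sort is not stated for these libraries, and intestinal changes limited the study of such knockout mice to the first days.

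Monocytes and dendritic cells arise from bone marrow progenitors that share parts of one program. IRF8 works with PU.1, the product of Spi1, at composite DNA elements, and directs progenitors towards monocytes and dendritic cells and away from neutrophils, while CSF1R carries survival and differentiation signals from CSF1 and IL-34. LSK cells lie upstream of committed progenitors, and RNA of these lineages can already be found among them.

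The 55 cells fell unevenly over the libraries. Control replicate 1 gave 35 of its 7797 kept cells and control replicate 2 gave 15 of 1193, whereas Nup358 knockout replicate 1 gave 3 of 1571 and replicate 2 gave 2 of 3331. Each value of gated knockout cells therefore rests on 3 or 2 cells. The median depth of the gated cells was 12299 and 23350 UMIs for the controls and 24292 and 32562 for the knockouts, and their summed UMIs were 465276, 375654, 89927 and 65124 in the same order. Many barcode sequences were deposited in more than 1 library, and a barcode was left out where another library held the same sequence at 3 times its UMIs or more. This removed 1369 and 5595 control barcodes and 3161 and 811 knockout barcodes. Of the 55 gated barcodes, 44 were also deposited in another library, and none passed the gate there. With the copied barcodes put back, the gated cells were the same in number, and only the denominators grew.

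Levels are given in CPM, the UMIs of a gene per 1000000 UMIs summed over the cells of a library, and 4 values in a row are in the order control replicates 1 and 2, then knockout replicates 1 and 2. The targeted gene Nup358, listed as Ranbp2, was at 140 and 95.8 CPM in gated control cells and at 267 and 61.4 CPM in gated knockout cells. In other kept cells it was at 127, 101, 123 and 126 CPM, so that it was not lower in the knockout libraries. The counts are 3′ tags summed per gene, without their position relative to the deleted exon, so these values do not check the deletion.

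As a share of kept cells, the gated cells made up 0.449% in control replicate 1 (95% exact binomial interval 0.313 to 0.624) and 1.26% in control replicate 2 (0.705 to 2.07). In the knockout libraries the shares were 0.191% (0.0394 to 0.557) and 0.0600% (0.00727 to 0.217). Both control libraries were above both knockout libraries, although the interval of control replicate 1 overlaps that of knockout replicate 1. The mean was 0.853% ± 0.572 in controls and 0.126% ± 0.0926 in knockouts (SD, n = 2), a 6.80-fold lower mean in the knockout. Each library weighed on this ratio, which was 10.0-fold without control replicate 1, 3.58-fold without control replicate 2, 14.2-fold without knockout replicate 1 and 4.47-fold without knockout replicate 2. An exact two-sided permutation test gave p = 0.33, which is the smallest that 2 libraries against 2 can give. Over all deposited barcodes in place of kept cells, the shares were 0.378%, 0.219%, 0.0620% and 0.0464%, and the order of the control libraries turned. With copied barcodes kept, the ratio of the means was 4.95-fold. The intervals cover counting error only.

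Under a looser count rule and at equal depth, both control shares were again above both knockout shares, while the ratio of the means moved. With at least 1 UMI of Csf1r and of Irf8 and the other terms kept, 217 and 53 control cells and 28 and 24 knockout cells passed, or 2.78%, 4.44%, 1.78% and 0.720% of kept cells, a 2.89-fold ratio. When each cell was thinned to 10000 UMIs and shallower cells were left out, this rule took 75 of 1889 cells in control replicate 1 (3.97%) and 26 of 871 in control replicate 2 (2.99%). It took 6 of 1223 cells in knockout replicate 1 (0.491%) and 10 of 2457 in knockout replicate 2 (0.407%), a 7.75-fold ratio. At that depth the control and knockout intervals did not overlap. The limit left 1889 of 7797 kept cells in control replicate 1, a smaller part than the 871 of 1193 in control replicate 2. In the knockouts it left 1223 of 1571 and 2457 of 3331, so that the parts compared are unlike. An Elane UMI was held by 71.6%, 23.8%, 10.7% and 7.12% of the cells left in the 4 libraries. How far this selection sets the shares was not tested. The gate with at least 2 UMIs of each gene took 12 and 3 control cells and 1 and 0 knockout cells at 10000 UMIs. The shares were 0.635%, 0.344%, 0.0818% and 0%, where the exact binomial interval of the count of 0 reaches 0.150%. A smaller number of such cells and less Csf1r or Irf8 RNA in each cell cannot be told apart by a rule of this kind. In kept cells with at least 10000 UMIs, thinned to that depth, a Csf1r UMI was found in 13.7% and 7.23% of control cells. In knockout cells it was found in 1.47% and 0.814%. An Irf8 UMI was found in 64.2% and 36.5% of these control cells and in 22.2% and 19.3% of these knockout cells.

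**Figure D1:**
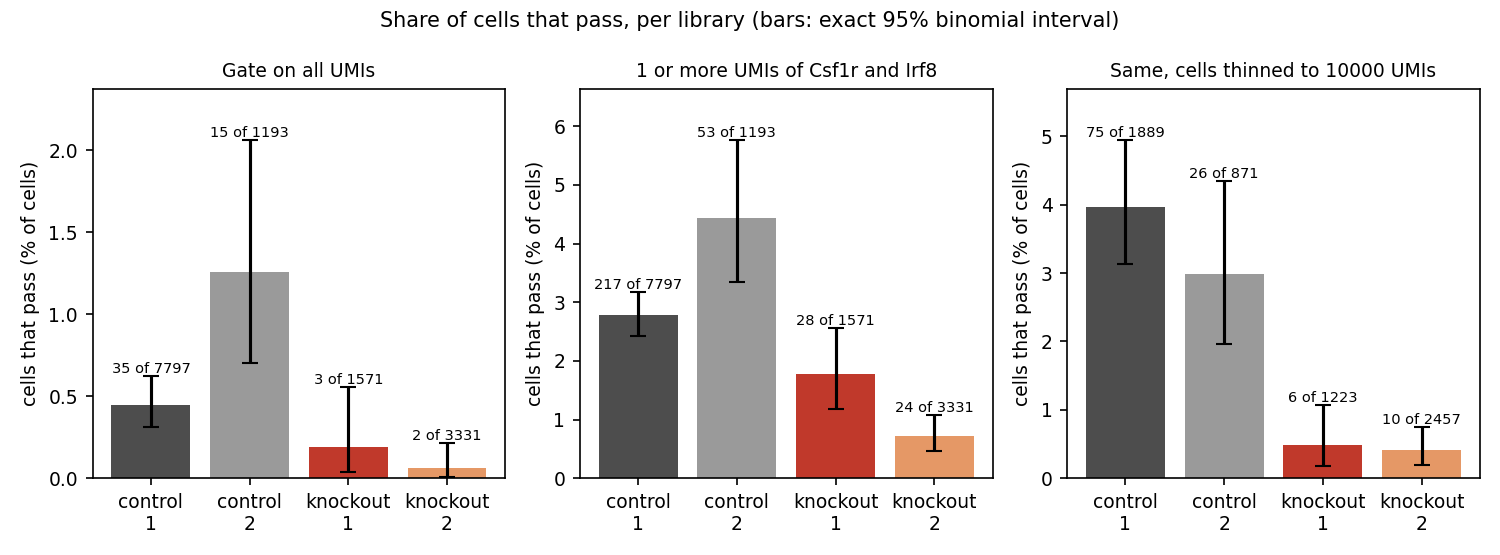
Share of cells that pass per library in percent, with the 95% exact binomial interval as bars and the number of cells above each bar, for the gate on all UMIs, for at least 1 UMI of Csf1r and Irf8, and for the latter after thinning to 10000 UMIs. Both control libraries are above both knockout libraries in each panel, and after thinning the intervals of the genotypes are separate.

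Of the terms of the gate, Csf1r and the limit on Elane set the number of cells. Irf8 reached 2 UMIs in 23.4% and 22.4% of control cells and in 17.1% and 12.1% of knockout cells, while Csf1r reached 2 UMIs in 1.37% and 3.60% of control cells and in 0.255% and 0.0901% of knockout cells. Both genes together were found in 102, 40, 3 and 3 cells of the 4 libraries. The limit on Elane then removed 67 and 25 control cells, most of those with both genes, and no knockout cell, Siglech removed 1 cell of knockout replicate 2, and Ms4a1 removed none. Without the limit on Elane the shares were 1.31% and 3.35% in controls, and the knockout shares were as before, so that the ratio of the means was 18.6-fold.

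Most gated cells stood at the lower limit for Csf1r. Exactly 2 UMIs were counted in 44 of the 55 cells, the highest count was 5, and all 5 knockout cells had 2. Irf8 ranged from 2 to 26 UMIs with a median of 6. Just outside the gate, 150 and 27 control cells and 14 and 14 knockout cells held 1 Csf1r UMI and met the other terms, and 1 control cell held 1 Irf8 UMI. Over the 2 control libraries pooled, F13a1 was at 238 CPM in cells with exactly 2 Csf1r UMIs, 153 in cells with 1 and 75.8 in cells with none, and Cx3cr1 was 53.2, 8.59 and 8.09. As a gauge of free RNA, 411 kept cells with at least 2 UMIs of the erythroid factor gene Gata1, with a median depth of 18379 UMIs, were examined. Of these, 5 held a Csf1r UMI and none held 2, which allows a share of up to 0.730% (3 divided by the number of cells). At least 2 Irf8 UMIs were held by 21 of the 411 cells, 7 and 0 in the controls and 4 and 10 in the knockouts, with a median depth of 34353 UMIs, and none of the 411 passed the gate.

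The 2 markers of the set that the gate did not use were both higher in gated than in other kept cells of every library. These contrasts follow from the choice of the cells and are given without a test. Ly86, which encodes MD-1, the partner of the receptor RP105, was at 32.2 and 63.9 CPM in gated control cells and at 55.6 and 76.8 CPM in gated knockout cells. In other kept cells Ly86 was at 9.87, 9.80, 3.95 and 1.88 CPM. The control cells with Csf1r and Irf8 that the limit on Elane removed had Ly86 at 51.1 and 76.5 CPM, above the gated control cells. F13a1, the gene of coagulation factor XIII subunit A and a gene of early monocytes, was at 264 and 208 CPM in gated control cells and at 55.6 and 230 CPM in gated knockout cells, against 92.0, 55.6, 18.0 and 10.2 CPM in other kept cells. The 3 gated cells of knockout replicate 1 held 2, 3 and 0 Ly86 UMIs and 2, 0 and 3 F13a1 UMIs. The 2 of knockout replicate 2 held 0 and 5 Ly86 UMIs and 14 and 1 F13a1 UMIs, so that single cells set these values. The median ratio over the 4 libraries, with 5 CPM added to each value, was 5.61-fold for Ly86 and 3.12-fold for F13a1. Both genes lie on chromosome 13 of mm10, F13a1 at chr13:36867178-37050244 on the minus strand and Ly86 at chr13:37345208-37419036 on the plus strand, 295 kb apart. Irf8 lies at chr8:120736358-120756694.

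These markers were unseen in many gated cells. A UMI of Ly86 was found in 21 of 55 cells and of F13a1 in 36 of 55. After thinning to 3000 UMIs, Ly86 was found in 7 of 50 gated control cells (14.0%) and in 1.84% of other control cells. It was found in 0 of 145 control cells with 2 or more Gata1 UMIs. That allows a share of up to 2.07% (3 divided by the number of cells). F13a1 was found in 20 of the 50 gated control cells (40.0%), in 12.5% of other control cells and in 0 of the 145. Among knockout cells, each gene was found in 2 of 5 gated cells, Ly86 in 0.893% and F13a1 in 2.40% of other cells, and Ly86 in 1 and F13a1 in 2 of 261 Gata1 cells. The median depth before thinning was 14480 UMIs in gated and 10496 in Gata1 control cells. In controls the shares of gated cells were above the background in cells of another lineage, and 5 knockout cells are too few for a share.

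Among all genes outside the gate, the 10 with the largest median ratio that were higher in each library included Ly86, Cx3cr1, Clec12a, Mpeg1, Chdh, Tmem229b, Kcng1, Cst7 and Pyhin1. Of 19163 genes with a UMI, 784 (4.09%) were higher in gated than in other kept cells of all 4 libraries and 5098 (26.6%) were lower, and the sums of 2 to 35 cells hold many genes at 0. Cx3cr1, the receptor for fractalkine and a marker of monocyte and dendritic progenitors, was at 40.8, 50.6, 22.2 and 30.7 CPM in gated cells and between 1.42 and 4.99 CPM in other kept cells. Clec12a, an inhibitory lectin receptor of myeloid cells, was at 236, 218, 311 and 215 CPM in gated cells. In other kept cells Clec12a was at 126 and 99.4 CPM in controls and at 29.7 and 24.8 CPM in knockouts. Mpeg1, the gene of the pore-forming protein perforin-2, was at 73.1, 71.9, 77.8 and 46.1 CPM in gated cells and between 8.30 and 16.9 CPM in the others. For each of these 3 genes the gated and the other values did not overlap. Their choice by the largest ratios favors this, so it is no separate result. Cst7, the gene of cystatin F, was 3.53-fold higher in the median, and Pyhin1, an interferon-inducible gene, 3.18-fold. The control cells with Csf1r and Irf8 that the limit on Elane removed had Clec12a at 311 and 313 CPM, above the gated control cells. Cx3cr1, at 23.0 and 38.3 CPM, and Mpeg1, at 64.7 and 37.1 CPM, were below them. Cst7 was at 145 and 110 CPM in the removed cells, and Pyhin1 at 93.9 and 115 CPM. Chdh, Tmem229b and Kcng1, which were not on any marker list, had median ratios between 3.55 and 3.79, and each had at most 12 UMIs in a knockout library.

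**Figure D2:**
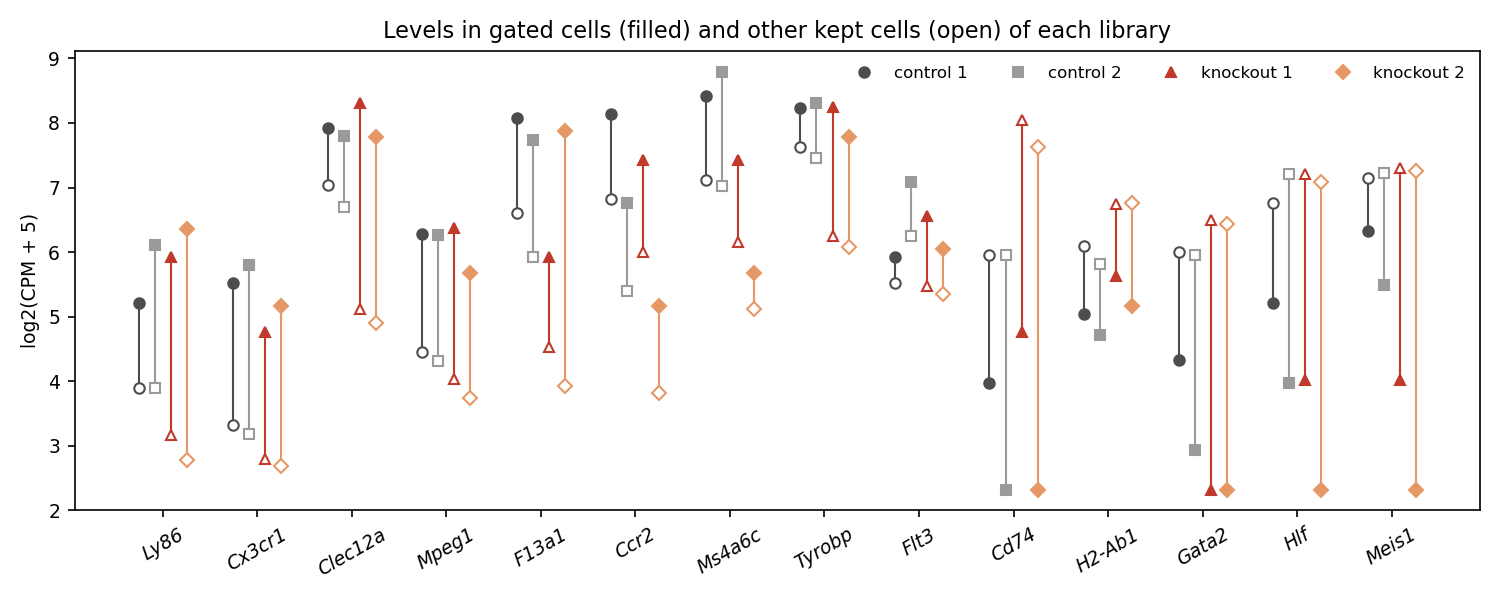
Levels of 14 genes as log2 of CPM with 5 added, with filled symbols for gated cells and open symbols for other kept cells of the same library, joined by a line. Myeloid genes from Ly86 to Tyrobp and Flt3 are higher in the gated cells of all 4 libraries, and Cd74, H2-Ab1, Gata2, Hlf and Meis1 are lower.

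Monocyte genes moved in both directions. Of 24 genes on the list, 8 were higher in gated cells of all 4 libraries (Ly86, F13a1, Ccr2, Cx3cr1, Zeb2, Mpeg1, Ms4a6c and Emb), 6 were lower, and 2 of these 6, Fn1 and Cd300lf, had no UMI. Over all genes, many of them sparse, 4.09% were higher and 26.6% lower. Other lists exceeded 4.09% too, so that the count of 8 is no result about monocyte genes. The summed level of the list was 2940, 2942, 2313 and 1536 CPM in gated cells and 1864, 1760, 1142 and 912 CPM in other kept cells, with Emb as its most abundant gene. In cells with 5 or more Elane UMIs per 10000 the list summed to 2675 and 3222 CPM in controls and to 1419 and 1012 CPM in knockouts, so that the gated cells of control replicate 2 were below them. The 67 and 25 control cells that held both genes and were removed by the limit on Elane had F13a1 at 408 and 372 CPM and Ly6c2 at 1303 and 1177 CPM, above the gated control cells. Ccr2, the receptor through which monocytes leave the marrow, was at 277 and 104 CPM in gated control cells and at 167 and 30.7 CPM in gated knockout cells, against 108, 37.2, 58.8 and 9.09 CPM in the others. The 3 gated cells of knockout replicate 1 held 0, 1 and 14 Ccr2 UMIs. Other members of the list were lower. Ly6c2, which marks classical monocytes, was at 161, 53.2, 33.4 and 0 CPM in gated cells and at 216, 177, 46.6 and 30.7 CPM in the others, and Klf4 and Fcgr3 were lower in all 4 libraries too. Lyz2, the lysozyme gene of mature myeloid cells, was higher in 1 of 4 libraries.

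The dendritic side of a name such as monocyte and dendritic primed progenitors had mixed values, and several defining markers were unseen. Of 20 dendritic genes, 3 were higher in all 4 libraries (Flt3, H2-DMa and Cst3) and 9 were lower, against 4.09% and 26.6% of all genes, and Batf3, Zbtb46, Cd209a, Plbd1 and Cd83 had no UMI in the 55 cells. The summed level was 1210, 1320, 967 and 998 CPM in gated cells and 1084, 1005, 1220 and 1160 CPM in the others, so that it was higher in gated cells of both control libraries and lower in those of both knockout libraries. Cst3, which encodes cystatin C, was its most abundant gene. Cd74, the invariant chain of MHC class II, was at 10.7, 0, 22.2 and 0 CPM in gated cells and at 57.0, 56.7, 259 and 192 CPM in other kept cells. H2-Aa, H2-Ab1 and H2-Eb1 were lower in the gated cells of all 4 libraries as well. Of 15 plasmacytoid dendritic genes, of which the gate used Siglech, Tcf4 and Runx2 were higher in all 4 libraries. The list summed to 649, 863, 834 and 614 CPM in gated cells and to 489, 540, 702 and 572 CPM in the others, with Bst2 as its most abundant gene, and Klk1, Spib, Cd300c and Pacsin1 had no UMI. Flt3, a receptor of multipotent and dendritic progenitors, was at 55.9, 130, 89.0 and 61.4 CPM in gated cells and at 40.8, 71.3, 39.3 and 36.0 CPM in the others.

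Transcripts of azurophil granules, the first granules of the neutrophil and monocyte line, were abundant in most gated cells. Mpo, the myeloperoxidase gene at chr11:87793581-87804413, was at 2727 and 1368 CPM in gated control cells and at 778 and 630 CPM in gated knockout cells. Prtn3, the proteinase 3 gene at chr10:79874476-79883174, was at 3030.5, 1898, 878 and 906 CPM. The neutrophil list of 13 genes, of which the gate limited Elane, summed to 7181 and 4600.0 CPM in gated control cells and to 2558 and 2472 CPM in gated knockout cells. In other kept cells it summed to 8458, 5315, 1720.0 and 1086 CPM, with Prtn3 as its most abundant gene. Outside Elane, 1 gene of the list (Anxa3) was higher and 7 were lower in gated cells of all 4 libraries, against 4.09% and 26.6% of all genes, and Camp, Ltf and Fcnb, genes of later granules, had no UMI. Against the 1747 cells with 5 or more Elane UMIs per 10000, Mpo, Prtn3 and Ctsg were lower in the gated cells of all 4 libraries, and Clec12a was at 236 and 298 CPM in those control cells.

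The start regions of Prtn3 and Mpo are shown because both genes also differed between the genotypes and both hold the same 8 letters of a PU.1 type motif, GAGGAAGT, printed in capitals. The stretches were read from RefSeq promoter windows on GRCm38.p6, the assembly of mm10, 5′ to 3′ on the plus strand. The Prtn3 stretch is at chr10:79879561-79879590, inside the GENCODE span of Prtn3 but in no exon, and its motif begins 95 bases before the RefSeq start. The Mpo stretch is at chr11:87793549-87793578, in no GENCODE gene, and its motif begins 224 bases before the start.
Prtn3: caaactggaagGAGGAAGTgggacccacag
Mpo: gtggagagagaGAGGAAGTtgcctttgtcc
Both strands of the windows, which run from 250 bases before to 50 bases after a start, were searched for GAGGAAGT and for GGAANNGAA, a composite motif of PU.1 and IRF factors. Of 22 genes looked up (the 10 with the largest ratio, the 10 with the smallest p between genotypes, F13a1 and Irf8), 16 had a window. GAGGAAGT was found for F13a1, Prtn3 and Mpo and in 3.20% of all windows, and GGAANNGAA for Chdh and Ms4a6c and in 8.24% of all windows. A match of letters describes the sequence and does not show a bound site.

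Erythroid, T cell, mast cell and macrophage genes were low or unseen, and among lymphoid genes Dntt was not. All 13 megakaryocyte and erythroid genes were lower in gated cells of all 4 libraries, against 26.6% of all genes, the list summed to 62.3, 10.6, 0 and 15.4 CPM against 322, 861, 370 and 492 CPM in other kept cells, and Hbb-bt was its most abundant gene. Epor, Car1, Mfsd2b, Treml1 and Vwf had no UMI. Of 14 B and lymphoid genes, 7 had no UMI beside the gate gene Ms4a1, Rag1, Cd79a, Ebf1, Vpreb3, Pax5 and Lef1 among them. The list summed to 146, 514, 334 and 215 CPM against 135, 300.4, 241 and 614 CPM, so that it was higher in gated cells of 3 libraries. Dntt, the gene of terminal transferase, was its most abundant gene and was found in 24 of the 55 cells, at up to 50 UMIs. The macrophage genes C1qa, C1qb and C1qc, the T cell genes Cd3d, Cd3e and Cd3g and the mast cell genes Cpa3, Ms4a2 and Fcer1a were at 0. For the T and NK list the sums were 131, 87.8, 33.4 and 15.4 CPM against 282, 200.1, 207 and 241 CPM, with Nkg7 as its most abundant gene. Basophil and mast cell genes summed to 12.9, 13.3, 22.2 and 15.4 CPM against 49.9, 35.1, 92.4 and 180.2 CPM, mostly from Mcpt8. Macrophage genes summed to 32.2, 21.3, 0 and 15.4 CPM against 33.1, 26.3, 35.2 and 21.6 CPM, led by Cd68.

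Stem cell genes were lower too. Of 15 genes, 13 were lower in gated cells of all 4 libraries, against 26.6% of all genes, among them the stem cell factors Hlf, Meis1 and Mecom, and Procr, Fgd5, Slamf1 and Mycn had no UMI. The sums were 1685, 1414, 1056 and 338 CPM against 2435, 3156, 2156 and 2179 CPM, mostly from Ifitm1. Transcripts of the sort markers were present. Kit was at 75.2, 39.9, 22.2 and 76.8 CPM in gated cells against 96.1, 104, 90.1 and 73.4 CPM, and Ly6a, which encodes Sca1, was at 86.0, 202, 267 and 30.7 CPM against 134, 189, 316 and 217 CPM. A UMI of each was found in 30 of the 55 cells.

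Among transcription factors outside the gate, Spi1, Zeb2, Tcf4, Mef2c, Runx2 and Ikzf1 were higher in gated cells of all 4 libraries, and 14 of the list of 37, which includes Gata2, Egr1, Klf2 and Nr4a1, were lower. Spi1 was at 258, 274, 200.2 and 369 CPM in gated cells and at 242, 201, 134 and 133 CPM in the others. Of 24 cytokine receptor genes, 7 outside the gate were higher in all 4 libraries (Csf2rb, Flt3, Il6ra, Ccr2, Cx3cr1, Cxcr4 and Cd44). In the list of 25 lysosome and phagocyte genes, 6 were higher, among them Tyrobp, the adaptor of activating myeloid receptors, and Ncf1, a subunit of the phagocyte oxidase, and 4 were lower. G2/M genes were higher in all 4 libraries for 13 of 30 and lower for none, with summed levels of 4406, 3793, 3558 and 6019 CPM against 3526, 2404, 3254 and 3899 CPM. Immediate early genes were lower for 12 of 17 and higher for none. Of 14 chemokine and cytokine genes, Ccl3 and Ccl9 were higher and 6 were lower, and of 10 MHC class II genes H2-DMa was higher and 6 were lower. Of 22 genes on Nup358 and HDAC3 partners 6 were higher and 0 lower. Of 19 interferon response genes 1 was higher and 2 were lower, of 30 G1/S genes 1 and 4, and of 16 targets of p53 2 and 5. Over all genes the shares were 4.09% higher and 26.6% lower in all 4 libraries, and these list counts stand beside them as descriptions.

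The 55 cells were not alike. In 5 of them, 1 from control replicate 1 and 4 from control replicate 2, more Dntt than Mpo was counted. These 5 cells held 4 to 50 Dntt UMIs, 0 to 9 Mpo UMIs and no UMI of F13a1 or Elane, while Irf8 ranged from 2 to 15 and Spi1 from 4 to 10 UMIs. The other 50 cells each held 5 to 147 Mpo UMIs, and 36 of them held F13a1. Dntt is an early lymphoid gene, and it was also found in all 5 knockout cells, at 2 to 15 UMIs. Across the 55 cells, UMIs per 10000 of Mpo and Prtn3 had a Spearman rho of 0.842 and a Pearson r of 0.806. Mpo and Dntt had a rho of -0.610, F13a1 and Irf8 a rho of 0.303, and F13a1 and Ly86 a rho of 0.00143. These values describe cells that share libraries and depth, and Ly86 is too sparse for its value to say more. By depth, 3 gated cells held over 2 times the median UMIs of the gated cells of their library, and by genes 2 cells held at least 2 UMIs of Gata1, Pf4, Klf1, Cd79a or Mcpt8. These 5 were treated as likely doublets and left out in an alternative. Among them was 1 of the 3 gated cells of knockout replicate 1, with 43693 of the 89927 gated UMIs of that library. Without the 5, each knockout library had 2 gated cells.

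**Figure D3:**
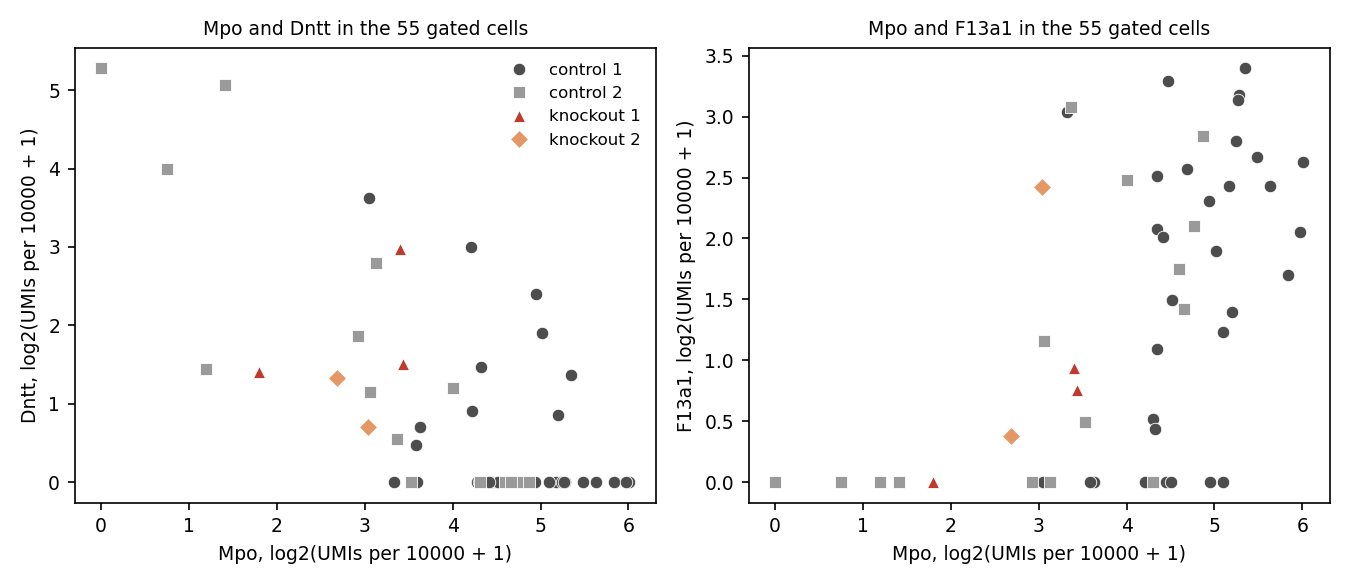
Mpo against Dntt and Mpo against F13a1 in the 55 gated cells as log2 of UMIs per 10000 with 1 added, with 1 symbol per cell and a symbol for each library. Cells with high Dntt are at low Mpo, and the 5 cells with more Dntt than Mpo hold no F13a1.

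To ask whether the few knockout cells of this kind carried another RNA profile, UMIs were summed over the gated cells of each library and tested between the genotypes with the quasi-likelihood test of edgeR and Benjamini-Hochberg adjustment. Of 3862 genes, 4 passed an adjusted p of 0.05 (0.104%), all lower in the knockout, and 401 genes had an unadjusted p under 0.05. Jun, which encodes a subunit of the AP-1 factor, was at 529 and 330.1 CPM in control and at 77.8 and 107 CPM in knockout cells. It fell by 2.39 ± 0.399 on the log2 scale (SE, adjusted p = 0.0159 by edgeR). Prtn3 fell by 1.62 ± 0.296 (adjusted p = 0.0284 by edgeR) and Mpo by 1.68 ± 0.324 (adjusted p = 0.0379 by edgeR), from the CPM values given above. Ccl3, a chemokine that attracts monocytes, was at 148 and 248 CPM in control and at 22.2 and 30.7 CPM in knockout cells and fell by 3.07 ± 0.614 (adjusted p = 0.0434 by edgeR). In each of the 4 genes both knockout values were below both control values. No gene passed once the 5 likely doublets were left out (smallest adjusted p = 0.159 by edgeR, 276 genes at an unadjusted p under 0.05), while the log2 changes were -2.16 for Jun, -1.79 for Prtn3, -1.88 for Mpo and -2.77 for Ccl3. Ccl3 also missed the threshold without the 5 cells with more Dntt than Mpo (-2.96, adjusted p = 0.0536 by edgeR), and the other 3 passed. DESeq2 called 2 of the 4, Prtn3 and Mpo. With a library left out the values stayed negative but calls were lost by edgeR's test. Jun was at -2.18 without knockout replicate 1 (adjusted p = 0.0506 by edgeR), and Prtn3 at -1.63 without either knockout library (adjusted p = 0.118 and 0.0835 by edgeR). Mpo was at -1.14 without control replicate 1 and -1.53 without knockout replicate 2, and Ccl3 at -2.60 without control replicate 2 and -2.87 without knockout replicate 1, with adjusted p from 0.0969 to 0.242 by edgeR. These 4 genes also fell in the other kept cells, where 451 of 13766 genes passed (3.28%), with log2 changes of -1.67 for Jun, -2.50 for Prtn3, -2.34 for Mpo and -3.55 for Ccl3 from the same edgeR test.

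Of the genes with the next smallest p, none passed. Mat2a, which encodes a subunit of methionine adenosyltransferase, was at 185 and 138 CPM in control and at 645 and 369 CPM in knockout cells (log2 change 1.52 ± 0.328 SE, adjusted p = 0.0883 by edgeR). Ms4a6c, a membrane protein gene of monocytes, was at 335, 439, 167 and 46.1 CPM (-1.92 ± 0.422, adjusted p = 0.0883 by edgeR). The cyclin gene Ccnd2 had a log2 change of 1.30, and Ifitm1, Fam173a and Ctsh had negative values. Ctsh, which encodes cathepsin H, had no UMI in the 5 knockout cells. Ms4a6c, Ifitm1 and Ccl3 have close relatives, so that reads could be split or lost among them. None of the markers of the set passed. Ly86 had a log2 change of 0.29 ± 0.597 (adjusted p = 0.911 by edgeR), Clec12a of 0.08 ± 0.339 (adjusted p = 0.970) and F13a1 of -0.99 ± 0.446 (adjusted p = 0.455), and these errors leave room for changes in either direction for Ly86 and Clec12a.

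**Figure D4:**
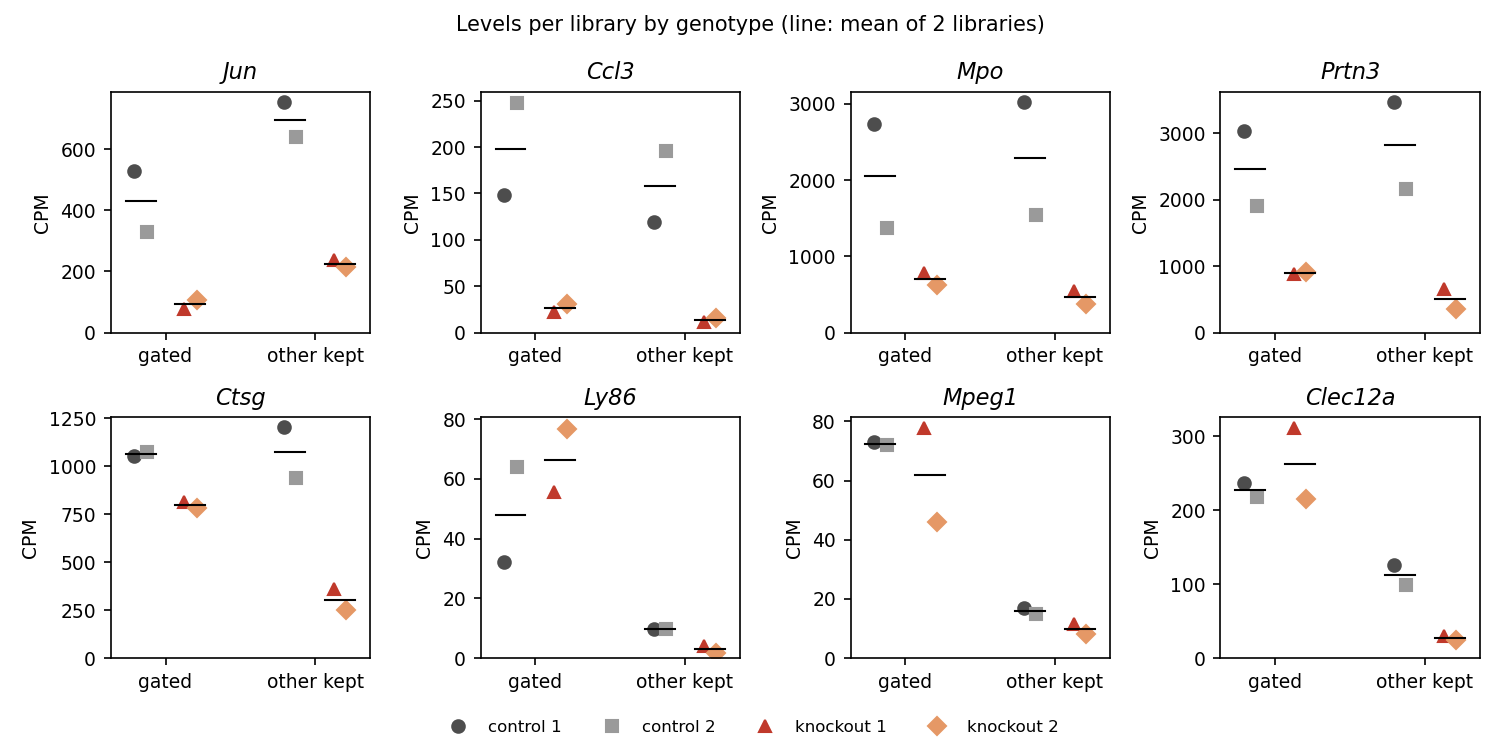
CPM of 8 genes per library in gated and in other kept cells, with a symbol for each library and a line at the mean of the 2 libraries of a genotype. Jun, Ccl3, Mpo and Prtn3 are lower in both knockout libraries in gated and in other cells, whereas Clec12a and Ly86 are low in other knockout cells but not in gated knockout cells.

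By list, 2 of 5 tested neutrophil genes (Mpo and Prtn3), 1 of 4 chemokine genes (Ccl3) and 1 of 12 immediate early genes (Jun) passed and were lower in the knockout. None of 15 monocyte, 20 lysosome and phagocyte, 24 G1/S and 27 G2/M genes passed. At 0.104% called over all genes, a list of this size without a call says nothing about its members. The median log2 change was -0.79 over the monocyte genes, -0.69 over the lysosome and phagocyte genes, -1.33 over the immediate early genes and -0.02 over the G2/M genes, against -0.03 over all genes tested. In other kept cells, the monocyte list had a median of -0.80, with 7 genes lower and 1 higher of 24, where 3.28% of all genes passed (2.02% lower and 1.26% higher).

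More genes passed with the looser rule of at least 1 UMI of Csf1r and Irf8, which rests on 270 control and 52 knockout cells. There 47 of 7988 genes passed in edgeR's quasi-likelihood test (0.588%), 8 higher (0.1%) and 39 lower (0.488%) in the knockout, and the 4 genes above were among them. The 39 include Csf1r, Irf8 and Elane, which the rule used and which are not read as results, so that 36 of 7985 genes outside the rule were lower. The cells that passed had a median depth of 9839 and 18337 UMIs in controls and of 26881.5 and 18951.5 in knockouts. Irf8 was at 404 and 289 CPM in these control cells and at 105 and 143 CPM in these knockout cells. The cells compared thus differ in depth and in a gene of the rule. How far this sets the changes below was not tested. F13a1 was at 185 and 115 CPM in control and at 25.0 and 44.7 CPM in knockout cells, and it fell by 2.24 ± 0.306 on the log2 scale (SE, adjusted p = 0.000947 by edgeR). Ly6c2 was at 87.0, 22.6, 4.35 and 0 CPM and fell by 4.44 ± 0.706, and Ms4a6c was at 269, 284, 116 and 48.3 CPM and fell by 1.77 ± 0.286. Tyrobp, Zeb2, Hp, which encodes haptoglobin, and the chemokine gene Ccl4 fell too. Cd74 was at 10.2 and 0 CPM in control and at 115 and 50.1 CPM in knockout cells (log2 change 3.62 ± 0.510 SE, adjusted p = 0.00102 by edgeR), and H2-Aa and H2-Eb1 rose with it. The other kept cells had changes in the same directions, with log2 values of 1.94 for Cd74, 1.74 for H2-Aa, 1.77 for H2-Eb1, -2.43 for F13a1, -2.39 for Ly6c2, -4.26 for Hp, -1.49 for Tyrobp and -2.57 for Ccl4, all past the threshold in edgeR's test. Ms4a6c (-1.47) and Zeb2 (-0.808) fell there too but did not pass (adjusted p = 0.0692 and 0.0714 by edgeR). A single cell of knockout replicate 1 gave 60 of the Cd74 UMIs of that library, and Cd74 was seen in 14 of 28 and 9 of 24 knockout cells and in 12 of 217 and 0 of 53 control cells. The macrophage gene C1qa was at 27.2 and 16.1 CPM in these knockout cells, from 1 cell in each library, and the B cell gene Cd79a at 2.17 and 37.6 CPM, from 2 cells and 1 cell. The part of these other cell types in the MHC class II values was not tested.

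The genotype effect in gated cells was then set against that in the other kept cells of the same libraries with an interaction term in edgeR. Of 12008 genes, 45 passed (0.375%), 7 with a more positive (0.0583%) and 38 with a more negative (0.316%) genotype effect in gated cells, and the median over all genes was -0.34. With the scaling of DESeq2 (RLE) in place of edgeR's trimmed mean, 7 genes passed (0.0583%), all 7 more positive, and the median was -0.19, so that the 38 negative calls depend on the scaling. With the looser rule 51 genes passed, 32 more positive and 19 more negative, and 8 of them were among the 45. With likely doublets left out 9 genes passed, 7 of them among the 45. Clec12a had the smallest p. Fitted separately, its genotype effect was -2.09 in the other kept cells and 0.08 in the gated cells. The interaction term, estimated in 1 fit over both cell groups and so not the plain gap between these values, was 2.02 ± 0.328 (SE, adjusted p = 8.22e-06 by edgeR). Ctsg, the cathepsin G gene, was at 1055 and 1073 CPM in gated control and at 812 and 783 CPM in gated knockout cells. The 3 cells of knockout replicate 1 held 13, 0 and 60 Ctsg UMIs, and the cell with 60 was a likely doublet. The 2 cells of knockout replicate 2 held 40 and 11. In other kept cells Ctsg was at 1207, 940.2, 358 and 252 CPM, and it differed by 1.13 ± 0.191 (adjusted p = 1.985e-05 by edgeR). Against Elane-high cells in place of all other kept cells, neither passed. Ctsg also missed the threshold with likely doublets left out and without a limit on Elane, where its value turned to -0.266. The Clec12a difference was 1.89 without control replicate 1 and 1.86 without knockout replicate 1 (adjusted p = 0.0797 and 0.0628 by edgeR), and the Ctsg difference was 0.94 without control replicate 1 and 0.95 without knockout replicate 2, which did not pass either. The gate fixes an upper limit for Elane and lower limits for Csf1r and Irf8 in both genotypes, and how far this alone sets the effect of genotype on genes that move with them was not tested.

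The histone deacetylase gene Hdac3, which the study ties to Nup358, was at 38.7, 31.9, 44.5 and 61.4 CPM in gated cells, and 0 of 19 tested genes of a list on Nup358 and HDAC3 partners passed between the genotypes, which at 0.104% called over all genes says nothing about these genes.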

How the data were processed

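Single-cell RNA of LSK cells was counted in 4 libraries with the 10x Genomics 3′ chemistry. Per the labels, the authors aligned reads to mm10 and counted UMIs per gene and barcode with Cell Ranger 3.1. The deposited values are whole-number counts without normalization, at 60330267 and 25111828 UMIs in control and 35986936 and 54850344 in knockout libraries. Barcodes with at least 1000 UMIs and at most 10% mitochondrial UMIs were kept where no other library held the same sequence at 3 times the UMIs or more. Cells were then chosen by the gate given above. The members and gene lists were chosen with earlier results of these data known, and the lists are not independent evidence.

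For each library the counts of a cell group were added up and tested in edgeR 4.0.16 under R 4.3.3 (quasi-likelihood test, trimmed mean of M-values, filterByExpr, Benjamini-Hochberg at 0.05), with the library as a block in the interaction fit. DESeq2 1.42.0 was an alternative. Python 3.11.15, numpy 2.4.6, scipy 1.17.1 and GENCODE M21 served for the rest. No doublet caller was run. Named genes are the gate genes, the markers, the genes of the lists, the 10 genes with the largest ratio of gated over other cells, and the genes past the threshold filled up to 10 by p, and a few of them are not reported here. CPM is per 1000000 UMIs summed over cells, and levels of genes are compared per transcript, as 3′ counts do not grow with length. The libraries of a genotype are pools of different mice, and p-values rest on the spread between 2 pools, with dispersion moderated over genes. In gated knockout cells a pool is represented by 3 or 2 cells, so that spread between pools and between single cells cannot be told apart. On simulated counts, the genotype fit over 3853 genes found 82.0% of genes raised 4-fold, 31.6% of genes lowered 4-fold, 10.6% raised 2-fold and 2.70% lowered 2-fold, so that a gene without a call may still differ.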

Additional observations from a re-analysis of the deposited data

Results flagged for a closer look

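For 6 genes named in the text there was a genotype effect that differed between gated and other kept cells of the same libraries in the interaction test of edgeR. The values are interaction terms on the log2 scale, positive where the change was more positive in gated cells, and need not equal the gap between separate fits. Clec12a differed by 2.02 (adjusted p = 8.22e-06 by edgeR) and passed in 10 of 13 alternatives, with values between 1.18 and 2.18. It did not pass against Elane-high cells, without control replicate 1 or without knockout replicate 1. Ctsg differed by 1.13 and passed in 8 of 13 alternatives, with values between -0.266 and 1.4 and the same sign in 12. Among the alternatives in which Ctsg did not pass were likely doublets left out, no limit on Elane, where the sign turned, and Elane-high cells. Hp differed by 3.16 (adjusted p = 0.0369 by edgeR) on 4 and 3 UMIs in the gated knockout cells, and passed in 2 of 13. Prtn3 differed by 0.748 and passed in 5 of 13, with both signs. In the other direction, Ifitm3 differed by -0.759 and Rrm1 by -1.47, and with RLE scaling no gene with a negative difference passed. The causes of these differences were not tested.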

How the results depend on the processing

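The mean share of gated cells was lower in the knockout under each of 15 alternatives, of which 2 say little. With cells thinned to 3000 UMIs the gate took 1 cell in all, and with cells thinned to 1000 UMIs the looser rule took cells of control replicate 1 only, with 0 in control replicate 2 too. The difference of the mean shares, -0.728 percentage points as reported, was -2.36 with at least 1 UMI of Csf1r and Irf8, -3.03 with that rule in cells thinned to 10000 UMIs, -0.449 with the gate as reported in cells thinned to 10000 UMIs, -0.109 with the looser rule thinned to 1000 UMIs, -0.00743 with the gate as reported thinned to 3000 UMIs and -2.20 without a limit on Elane, and it ran from -1.13 to -0.323 with a library left out. With copied barcodes kept it was -0.340. The gate in cells thinned to 3000 UMIs and the gate with at least 3 UMIs took no knockout cell, so that no fit could be made, and with at least 3 UMIs the difference was -0.235 on 4 and 5 control cells.

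The 4 genotype calls in gated cells became 47 with the looser gate, 0 with likely doublets left out, 61 without a limit on Elane, 2 with DESeq2, 3 without cells with more Dntt than Mpo and 31 without a filter on low counts, and 8 to 38 with a library left out, where the lone library is assumed to vary like the other genotype. Jun, Prtn3, Mpo and Ccl3 kept their sign in all 14 alternatives. Control and knockout libraries share only replicate numbers, and deviations of libraries with the same number had a correlation of -0.0607 over 3862 genes. With the replicate block 17 genes passed, 3 higher and 14 lower, the 4 among them.

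The 45 interaction calls, 7 more positive and 38 more negative, became 51 with the looser gate (32 and 19, 8 shared with the 45), 13 with copied barcodes kept, 9 with likely doublets left out, 221 without a limit on Elane, 4 with DESeq2, 7 with RLE scaling, 3 without a filter and 7 against Elane-high cells, and 0 to 39 with a library left out (0 without control replicate 1). Prtn3 turned to -0.899 and Ctsg to -0.266 without a limit on Elane, and Prtn3 to -0.706 against Elane-high cells. Of 242 level ratios recomputed for 22 genes, 17 moved by more than the spread and 2 changed sign under the stricter gate, Zeb2 among them. The alternatives without a limit on Elane, without cells with more Dntt than Mpo and at 10000 UMIs were chosen after seeing the data. With 5 knockout cells, counting error limits all knockout values.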
